A study of Rattus norvegicus with 30 samples.

Results

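The genes described here encode the nuclear subunits of the mitochondrial respiratory chain and of ATP synthase, measured in rat left ventricle under protocols of ischemia and preconditioning. They were taken as every probe set that carries 1 gene symbol and whose symbol starts with Nduf, Sdha, Sdhb, Sdhc, Sdhd, Uqcr, Cox4, Cox5, Cox6, Cox7, Cox8 or Atp5, together with Cycs and Cyc1. This gave 56 genes on 102 probe sets, out of 4736 genes on 7006 probe sets with 1 symbol. Complex I held 27 genes, complex II 2, complex III 4, complex IV 13 and ATP synthase 10, while Cycs, the gene of cytochrome c, had no such probe set. The choice by letters also took in genes that are not subunits: the assembly factors Ndufaf3 and Sdhaf2, the ATP synthase inhibitor Atp5if1, the subunit paralog Ndufa4l2 and the pseudogene Cox6c-ps1. Ndufa4 was counted with complex I by its name, although its protein is now regarded as a part of complex IV. Another 6 probe sets that name a subunit beside a second gene were not used, among them one for Cox5a, and Cox7a1 and Cox7a2 had no probe set with 1 symbol.

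Total RNA was prepared from rat hearts, left ventricle only, and hybridized to 30 Affymetrix arrays, 5 biological replicates in each of 6 groups. The groups were control (CTL), ischemia (ISCH), ischemic preconditioning (IPC), anesthetic preconditioning (APC), the trigger of ischemic preconditioning (IPC_TRI) and the trigger of anesthetic preconditioning (APC_TRI). The series names ischemia with reperfusion, set against pharmacological and ischemic preconditioning, as its subject. The labels used here name no strain, age, anesthetic, duration or perfusion method, and do not say at which step of a protocol a heart was taken.

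The respiratory chain passes electrons from NADH through complex I, or from succinate through complex II, to ubiquinone, on through complex III and cytochrome c, and to oxygen at complex IV. The proton gradient that complexes I, III and IV build drives ATP synthase, which makes most of the ATP of a beating heart. Apart from a small set of core subunits encoded by mitochondrial DNA, the subunits come from nuclear genes, and several complex IV subunits exist in a form found in heart and skeletal muscle and a form found in most tissues.

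The values were signal intensities, with 8799 probe sets per array and 59 of them controls. Every array had been scaled to the same level: the mean without the 2% highest and 2% lowest signals lay between 500.8 and 501, while the median lay between 114.6 and 189.2. Of the 87 probe sets that made up the brightest 1%, 11 belonged to the genes described here. The share of all signal in that brightest 1% was 30.17% ± 3.189 (SD, n = 5) in CTL, 37.24% ± 2.405 in IPC_TRI (exact permutation p = 0.0079, adjusted 0.066 over 25 tests of array quality) and 37.09% ± 4.155 in ISCH (exact permutation p = 0.016, adjusted 0.066). In APC_TRI that share was 34.59% ± 1.253 (exact permutation p = 0.032, adjusted 0.11). The 3′ to 5′ ratio of beta-actin, a measure of RNA integrity, was 0.0817 ± 0.245 on the log2 scale in CTL and 0.319 ± 0.063 in ISCH (exact permutation p = 0.048, adjusted 0.13). It was -0.456 ± 0.373 in IPC_TRI and -0.357 ± 0.279 in APC_TRI (exact permutation p = 0.016 and 0.04, adjusted 0.066 and 0.12). The same ratio of GAPDH moved the other way, from -0.0612 ± 0.105 in CTL to 0.134 ± 0.0986 in IPC_TRI and 0.192 ± 0.143 in APC_TRI (exact permutation p = 0.0079 in each, adjusted 0.066). The log2 signal of the bacterial spike transcripts was 10.75 ± 0.687 in CTL and 12.02 ± 0.611 in ISCH (exact permutation p = 0.016, adjusted 0.066). On APC_TRI 3 the 2 atrial markers on the array, Myl7 and Myl4, summed to 17230, against 688.3 at most on the other APC_TRI arrays and 212.2 to 1566 in CTL, and without that array 7 genes were called in APC_TRI minus CTL in place of 8. The part of these differences in the results was not tested beyond the alternatives given beside them.

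Each gene was represented by its brightest probe set, and 55 of the 56 genes could be tested. Cox6c-ps1 was left out with the 40% of probe sets of lowest mean signal, at signals between 8.7 and 121.7. Changes are differences of log2(signal + 16) after quantile normalization, tested with limma over all 5244 probe sets kept, and a gene was called at a Benjamini-Hochberg adjusted p under 0.05. Any difference among the 6 groups was called for 19 of the 55 genes by limma's F test, against 30.5% of all 3155 genes tested. Those 19 were Ndufa3, Ndufa4l2, Ndufa5, Ndufb2, Ndufb5, Ndufb11, Ndufc2, Ndufs1 and Ndufs8 of complex I, Sdha of complex II, Uqcrc2 and Uqcrfs1 of complex III, Cox4i2, Cox5b, Cox6a2, Cox7b and Cox8a of complex IV, and Atp5f1e and Atp5pd of ATP synthase. In bulk tissue, fewer cells of a type and less RNA per cell cannot be told apart.

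**Figure D1:**
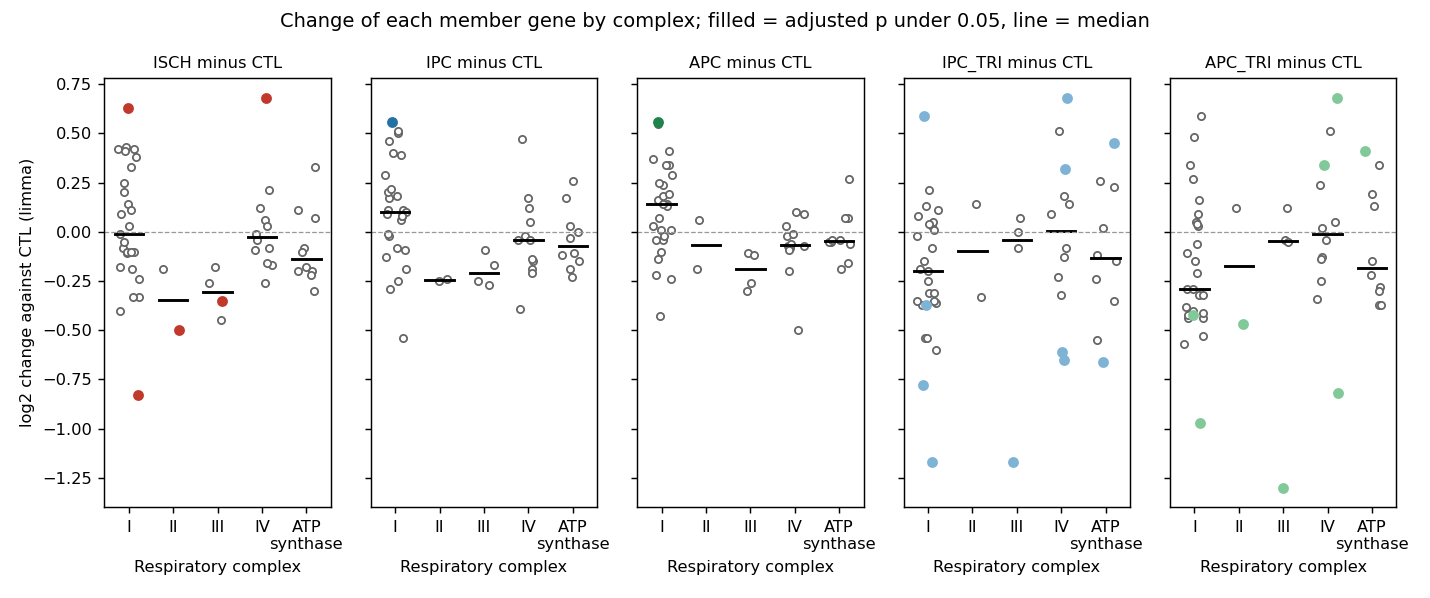
Log2 change of each of the 55 tested genes against CTL, grouped by complex, in ISCH, IPC, APC, IPC_TRI and APC_TRI; filled points have an adjusted p under 0.05 (limma) and the line is the median of the complex. Uqcrc2 lies at -1.17 in IPC_TRI and -1.30 in APC_TRI, while single genes of complex IV and ATP synthase lie above 0.

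The 2 trigger groups held the most called genes of any comparison with CTL. In IPC_TRI, 7 of the 55 genes fell (Uqcrc2, Ndufs1, Ndufb2, Atp5pd, Cox7b, Cox5b and Ndufa5) and 4 rose (Cox8a, Ndufv3, Atp5f1e and Cox6a2). That is 11 of 55 genes, against 15.7% of all genes tested (8.75% lower and 6.94% higher). In APC_TRI, 5 fell (Uqcrc2, Ndufs1, Cox7b, Sdha and Ndufa5) and 3 rose (Cox8a, Atp5f1e and Cox6a2), or 8 of 55 against 7.89% of all genes (4.28% lower and 3.61% higher). Both comparisons use the same CTL arrays. The median change of the 55 genes was -0.13 in IPC_TRI and -0.14 in APC_TRI, where the medians of all genes were -0.02 and 0.01. The count of 11 became 7 without CTL 2, without CTL 4 or without IPC_TRI 5, and that of 8 became 5 without CTL 1 and 4 without CTL 2, APC_TRI 1 or APC_TRI 5. With the beta-actin ratio as a covariate, 5 genes were called in each trigger group, in a fit to the arrays of the contrast alone 4 and 15, and without IPC_TRI 5 and ISCH 1, the arrays whose medians over these genes were lowest, 10 and 15.

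Uqcrc2, core protein 2 of complex III, had the lowest log2 value of the 55 genes in APC_TRI and, level with Ndufs1, in IPC_TRI. Its deposited signal was 14887.5, 13012.3, 14633.8, 12269.3 and 11882.6 in CTL, 6010.1, 8049.2, 6967.6, 6139.0 and 5406.4 in IPC_TRI, and 6259.6, 5383.4, 7021.8, 6106.8 and 5183.9 in APC_TRI. Every trigger array lay below every CTL array. The group means were 13340 ± 1364 (SD, n = 5) in CTL, 6514 ± 1023 in IPC_TRI and 5991 ± 736.3 in APC_TRI, and 13750 ± 2524 and 11900 ± 2621 in IPC and APC. On the log2 scale Uqcrc2 fell by 1.17 in IPC_TRI (SE 0.18, limma adjusted p = 5.7e-05), and in APC_TRI it fell by 1.30 (SE 0.18, limma adjusted p = 3.9e-05). The other complex III genes were not called in either trigger group: Uqcrfs1, the Rieske iron-sulfur protein, was at -0.08 in IPC_TRI and 0.12 in APC_TRI, and Cyc1, cytochrome c1, at 0.00 and -0.04. In ISCH the Uqcrc2 signals spread from 7351.4 to 16746.4 and overlapped those of CTL, with a log2 change of -0.45 (SE 0.18, limma adjusted p = 0.11).

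Complex IV held genes that moved in opposite directions. Cox7b, a small nuclear subunit, read 6380.8, 7394.0, 7199.5, 5623.7 and 6402.1 in CTL, 3829.3, 5431.5, 3761.6, 4038.8 and 3847.0 in IPC_TRI, and 3237.1, 3836.4, 4264.0, 4045.3 and 3490.4 in APC_TRI. No trigger array reached the lowest CTL array. Cox7b fell by 0.65 in IPC_TRI (SE 0.14, limma adjusted p = 0.0024) and by 0.82 in APC_TRI (SE 0.14, limma adjusted p = 0.00038). Cox8a, the form of subunit 8 found in most tissues, read 11048.9, 13197.9, 17243.5, 11958.4 and 15794.2 in CTL, 27525.9, 35133.4, 23688.9, 24447.1 and 33511.2 in IPC_TRI, and 26788.6, 23839.3, 25999.8, 29026.9 and 24544.6 in APC_TRI. Every trigger array lay above every CTL array. Cox8a rose by 0.68 in each trigger group (SE 0.14, limma adjusted p = 0.0019 in IPC_TRI and 0.0031 in APC_TRI), and by 1.06 and 0.93 where the signals were used as deposited, without quantile normalization. Its counterpart in heart and skeletal muscle, Cox8b, was not called (-0.32 in IPC_TRI, limma adjusted p = 0.15, and -0.25 in APC_TRI).

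Cox6a2, the heart and skeletal muscle form of subunit 6a, was among the brightest probe sets of the array. Its signal was 31202.8, 35746.1, 33116.9, 28451.0 and 32300.8 in CTL, 73260.9, 67408.8, 62286.3, 52746.3 and 56914.7 in IPC_TRI, and 53896.6, 56460.4, 47424.0, 53811.2 and 63642.8 in APC_TRI. The trigger arrays lay above all CTL arrays on both scales. Quantile normalization compressed this difference: the log2 rise was 0.95 and 0.77 as deposited but 0.32 (SE 0.10, limma adjusted p = 0.035) and 0.34 (SE 0.10, limma adjusted p = 0.038) after it. Without CTL 3 these became 0.23 and 0.25 and were no longer called, and the calls also ended without CTL 2 or IPC_TRI 1 or 3 in the first, and without CTL 2 or APC_TRI 1, 2, 3 or 5 in the second. A second bright probe set of Cox6a2 read -0.20 and -0.17 after normalization, neither called, although its deposited means were 34430 and 31700 against 28680 in CTL, so its direction depended on the scaling. Cox6a1, the form found in most tissues, was at 0.14 and 0.05, and at -0.35 and -0.45 with the mean over its probe sets, of which the lowest were at -1.06 and -1.13. None of these was called.

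Cox5b, a peripheral subunit of complex IV, fell in IPC_TRI by 0.61 (SE 0.16, limma adjusted p = 0.012). Its signals were 12404.0, 10667.9, 13571.8, 11912.9 and 11901.0 in CTL and 11974.5, 12036.4, 9636.9, 10222.2 and 4067.1 in IPC_TRI, and the groups overlapped, with IPC_TRI 5 far below the rest. Without IPC_TRI 5 the change was -0.39. The second probe set of Cox5b separated the groups: it read 5423.3, 7374.0, 4661.8, 7181.8 and 4605.1 in CTL, 2819.9, 2718.3, 2974.6, 3137.9 and 982.5 in IPC_TRI, and 2747.9, 2606.5, 2823.1, 2971.8 and 1931.2 in APC_TRI. Its log2 change was -1.26 in IPC_TRI (limma adjusted p = 0.0008) and -1.13 in APC_TRI (limma adjusted p = 0.003).

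**Figure D2:**
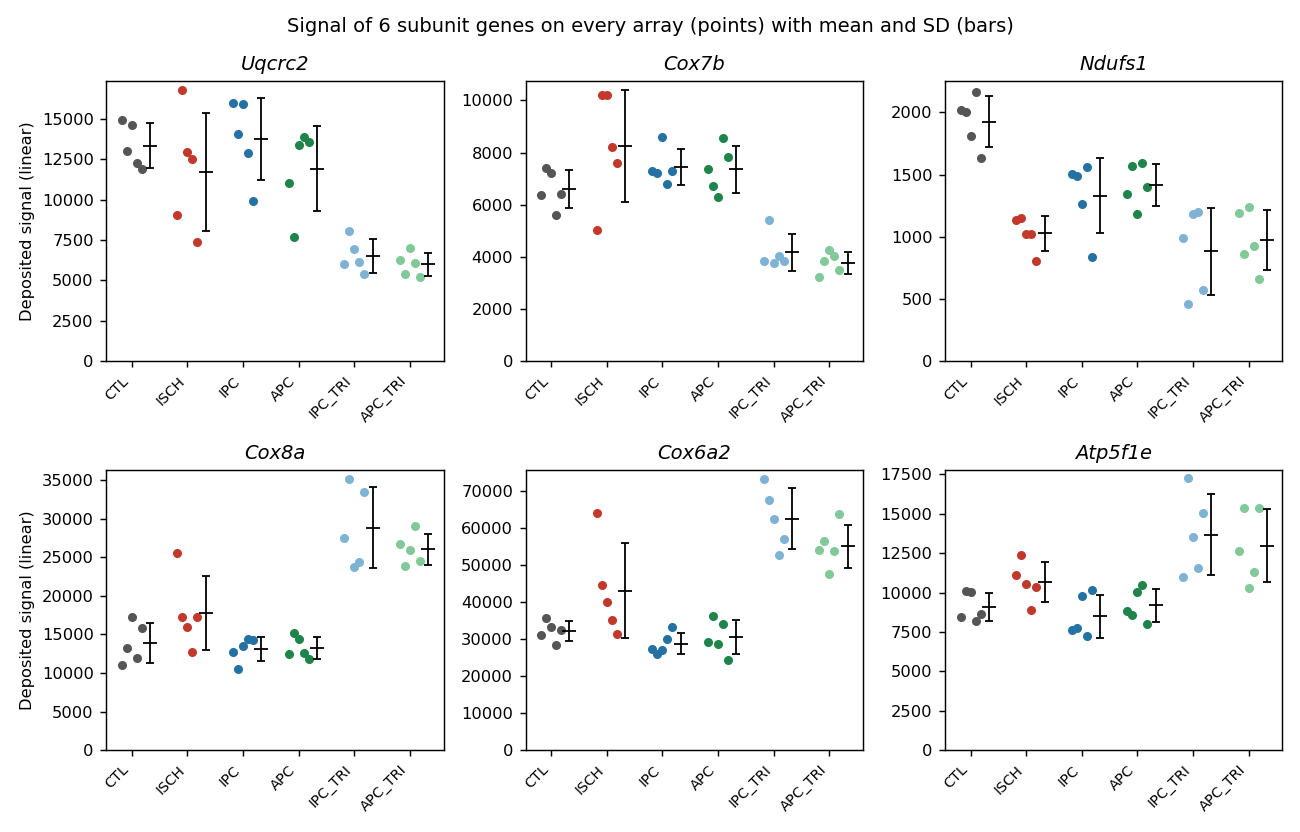
Deposited signal intensity (linear axis from 0) of Uqcrc2, Cox7b, Ndufs1, Cox8a, Cox6a2 and Atp5f1e on each of the 30 arrays, by group, with the group mean and SD. Uqcrc2, Cox7b and Ndufs1 lie lower in IPC_TRI and APC_TRI than in CTL, and Cox8a, Cox6a2 and Atp5f1e lie higher.

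Complex I was lower at its median than the whole list in both trigger groups: -0.20 in IPC_TRI, with 9 of 27 genes above 0, and -0.29 in APC_TRI, also with 9 of 27 above 0. Of the 27 genes, 3 were called lower and 1 higher in IPC_TRI, and 2 lower in APC_TRI, shares near those of all genes given above. Ndufs1, the largest core subunit, which carries iron-sulfur clusters, read 2017.8, 2005.1, 1805.9, 2165.9 and 1633.2 in CTL, 994.1, 460.1, 1184.8, 1202.5 and 571.2 in IPC_TRI, and 1194.8, 864.4, 1235.8, 930.4 and 659.2 in APC_TRI. All trigger arrays were below all CTL arrays. Ndufs1 fell by 1.17 in IPC_TRI (SE 0.22, limma adjusted p = 0.0008) and by 0.97 in APC_TRI (SE 0.22, limma adjusted p = 0.0054). The accessory subunit Ndufa5 fell by 0.37 (SE 0.12, limma adjusted p = 0.037) and by 0.42 (SE 0.12, limma adjusted p = 0.029). In CTL its signals were 6876.8, 6982.9, 5726.7, 6955.7 and 6509.9. In APC_TRI they were 4453.1, 5168.0, 4820.0, 5232.5 and 5023.9, all below CTL, whereas IPC_TRI, from 3719.5 to 7241.9, overlapped CTL. Ndufa5 lost its call in IPC_TRI without CTL 1, 2, 4 or 5 or IPC_TRI 3, 4 or 5 (-0.30 without IPC_TRI 5) and in APC_TRI without CTL 1, 2 or 4 or APC_TRI 1 or 5 (-0.38 without APC_TRI 1).

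The remaining complex I calls were made in IPC_TRI with overlapping groups. Ndufb2, an accessory subunit of the membrane arm, read 7792.8, 6686.9, 4794.7, 6598.1 and 7009.3 in CTL and 4834.2, 5310.2, 4919.9, 3321.6 and 1839.7 in IPC_TRI. It fell by 0.78 (SE 0.26, limma adjusted p = 0.035), and by 0.55 without IPC_TRI 5, which ended the call, as did leaving out CTL 1, 2, 4 or 5 or IPC_TRI 4. Ndufv3, an accessory subunit of the arm that binds NADH, read 3612.2, 4139.5, 4877.1, 3582.6 and 4366.8 in CTL and 5610.1, 10406.2, 6068.8, 4270.0 and 5538.8 in IPC_TRI. It rose by 0.59 (SE 0.18, limma adjusted p = 0.028), and without IPC_TRI 2 the value was 0.45 and not called, nor was it without CTL 1, 2 or 4 or IPC_TRI 5.

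In ATP synthase, Atp5f1e, the epsilon subunit of the F1 part, rose in both trigger groups. Its signals were 8476.6, 10117.1, 10020.8, 8209.4 and 8629.6 in CTL, 11012.5, 17293.5, 13515.6, 11547.4 and 15037.4 in IPC_TRI, and 12627.6, 15376.8, 10292.3, 11278.8 and 15365.6 in APC_TRI. As deposited every trigger array lay above CTL, but after normalization APC_TRI overlapped CTL. The rise was 0.45 in IPC_TRI (SE 0.13, limma adjusted p = 0.018) and 0.41 in APC_TRI (SE 0.13, limma adjusted p = 0.046), and the calls ended without CTL 4 or IPC_TRI 5 (0.36 without the latter) in the first, and without CTL 1, 2, 4 or 5 or APC_TRI 1, 2 or 5 (0.35 without the last) in the second. Atp5pd, subunit d of the peripheral stalk, read 8854.7, 8797.1, 5120.6, 8099.3 and 6918.4 in CTL and 5052.8, 6625.8, 5029.1, 5032.8 and 2829.5 in IPC_TRI. These groups overlapped. Atp5pd fell by 0.66 in IPC_TRI (SE 0.18, limma adjusted p = 0.014), and its value without IPC_TRI 5 was -0.50, which was not called. The subunits of the catalytic head were not called: Atp5f1a, the alpha subunit, was at -0.15 and -0.28, and Atp5f1b, the beta subunit, at -0.24 and -0.15 in IPC_TRI and APC_TRI. The inhibitor Atp5if1 was at 0.02 in IPC_TRI and 0.13 in APC_TRI. The first value rested on IPC_TRI 5, without which it was 0.47, and a second probe set of Atp5if1 was called higher in IPC_TRI, at 0.59 (limma adjusted p = 0.025).

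In complex II, Sdha, the flavoprotein that oxidizes succinate, read 7963.4, 8544.9, 8873.4, 7305.7 and 7391.6 in CTL and 4727.1, 7999.2, 6777.1, 5778.6 and 5177.0 in APC_TRI. The groups overlapped through 1 APC_TRI array. Sdha fell by 0.47 in APC_TRI (SE 0.14, limma adjusted p = 0.029), and without APC_TRI 1 it was at -0.40 and not called, nor was it without CTL 1, 2 or 3 or APC_TRI 4 or 5. In IPC_TRI it was at -0.33 (limma adjusted p = 0.096). The assembly factor Sdhaf2 was at 0.14 and 0.12.

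Of the calls against CTL in the trigger groups, those of Uqcrc2, Ndufs1, Cox7b and Cox8a were kept under all 13 alternatives and all 10 fits that left out 1 array, while each of the others ended under 2 to 6 of the 13 alternatives. Uqcrc2, Ndufs1 and Cox7b have 1 probe set each, so the mean over probe sets could not change their values. Groups did not overlap on either scale for 6 of the 11 called genes in IPC_TRI, against 198 of the 495 called among all genes, and for 6 of the 8 in APC_TRI, against 174 of 249. Over all 55 genes they did not overlap for 6 and 10, against 6.97% and 11.2% of all genes tested. The cardiomyocyte markers gave 4 genes lower of 13 tested in IPC_TRI (Myh6, Ryr2, Pln and Ckmt2; list median -0.10) and 2 lower in APC_TRI (Pln and Ckmt2; list median -0.15). Their summed signal ran from 346200 to 526300 in IPC_TRI and from 327000 to 408400 in APC_TRI, against 253800 to 403800 in CTL. The 8 fibroblast markers summed to 36460 to 75370 in IPC_TRI and 39310 to 43390 in APC_TRI, above the 23020 to 29500 of CTL. Dcn, the brightest of them, was called at 0.93 and 0.85, while the list medians were -0.20 and -0.26 and no other fibroblast marker was called. Of the endothelial markers Pecam1 fell in IPC_TRI, by 0.62, while the list median was 0.10 and no other endothelial marker was called. The 2 adipocyte markers tested, Fabp4 and Lpl, were lower in APC_TRI, at -2.04 and -0.59. The part of cell composition in these changes was not tested.

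The stretches upstream of 4 of these genes are shown as examples of genes called in the same direction in both trigger groups, Cox8a and Atp5f1e higher and Uqcrc2 and Cox7b lower. Each is the 250 bases before the annotated start from RefSeq on the rat build GRCr8, 5′ to 3′ on the strand of the gene, with the letters CCGGAA or their reverse complement TTCCGG in capitals. These letters lie within the binding motif of GABP, a factor known for its sites in promoters of respiratory chain genes. Cox8a lies at chr1:213833624-213833873 on the minus strand, Atp5f1e at chr3:183680173-183680422 on the minus strand, Uqcrc2 at chr1:184598990-184599239 on the plus strand and Cox7b at chrX:75148786-75149035 on the plus strand.
Cox8a: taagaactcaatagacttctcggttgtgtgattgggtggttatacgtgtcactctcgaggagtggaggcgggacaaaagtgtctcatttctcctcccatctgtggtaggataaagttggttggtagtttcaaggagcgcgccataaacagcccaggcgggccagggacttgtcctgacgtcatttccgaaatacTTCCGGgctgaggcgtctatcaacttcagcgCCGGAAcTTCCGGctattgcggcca
Atp5f1e: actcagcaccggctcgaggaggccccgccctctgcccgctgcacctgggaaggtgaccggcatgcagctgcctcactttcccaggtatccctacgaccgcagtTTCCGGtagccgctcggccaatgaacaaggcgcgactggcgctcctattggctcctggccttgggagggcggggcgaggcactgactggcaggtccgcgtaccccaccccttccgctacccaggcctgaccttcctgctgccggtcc
Uqcrc2: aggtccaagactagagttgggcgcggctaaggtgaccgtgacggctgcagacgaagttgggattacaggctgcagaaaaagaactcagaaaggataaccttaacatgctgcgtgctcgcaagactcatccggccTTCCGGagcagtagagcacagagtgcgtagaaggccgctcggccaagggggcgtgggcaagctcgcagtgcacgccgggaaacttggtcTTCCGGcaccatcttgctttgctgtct
Cox7b: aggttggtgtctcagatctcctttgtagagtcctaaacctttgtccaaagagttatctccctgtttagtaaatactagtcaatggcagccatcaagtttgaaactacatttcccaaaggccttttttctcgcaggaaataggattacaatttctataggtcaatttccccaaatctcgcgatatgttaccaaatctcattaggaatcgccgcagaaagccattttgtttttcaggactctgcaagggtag
Cox8a had 3 matches, Uqcrc2 2, Atp5f1e 1 and Cox7b 0. Ndufs1, Ndufa5 and Cox6a2, also called in the same direction in both trigger groups but not shown, had 1, 0 and 0. Genes that rose and genes that fell both held the letters, and a match is a description of the sequence only.

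Upstream sequence was matched by symbol for 47 of the 56 genes. CCGGAA, on either strand, stood in 14 of the 47 stretches (29.8%), against 12.6% of 33469 stretches of the same length. A word of the NRF1 motif stood in 5 (10.6% against 3.75% of all), and the letters ACGTG or GCGTG of the HIF motif in 27 (57.4% against 36.7%). The ERR letters AAGGTCA were found in 3 (6.38% against 3.99%) and the YY1 letters AAGATGGC in 1 (2.13% against 1.63%). Each share lay above that of all 33469 stretches, which were not matched for base composition. For the ERR and YY1 letters it rested on 3 and 1 stretches, too few to read as a difference. The part of base composition was not tested. Some spellings of the NRF1 word contain a HIF word, and the remaining words do not contain each other.

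Genes with several probe sets allowed the changes to be read more than once. Of the 26 genes with more than 1 tested probe set, all probe sets had the same sign in 13 genes in IPC_TRI and in 12 in APC_TRI. For Cox8a all 4 probe sets were above 0 in APC_TRI, at 0.68, 0.63, 0.28 and 0.91, with limma adjusted p of 0.0031, 0.027 and 0.0046 for the values of 0.68, 0.63 and 0.91. In IPC_TRI they were at 0.68, 0.20, -0.12 and 0.83, of which 0.68 and 0.83 were called. The second read 6045.6 on IPC_TRI 5, where the other IPC_TRI arrays lay between 14592.4 and 19456.3. Cox6c, a small subunit of complex IV, had probe sets on both sides of 0: its brighter probe set was at -0.23 in IPC_TRI and -0.14 in APC_TRI, and its dimmer one at 1.22 (limma adjusted p = 0.00082) and 0.81 (limma adjusted p = 0.025). The dimmer probe set read 79.0 to 147.8 in CTL and 158.6 to 453.7 in IPC_TRI, without overlap.

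Further genes disagreed between their probe sets where 1 of them was called. In IPC_TRI these were Ndufb8 (-0.02, 0.46, 0.18 and 0.53), Uqcrfs1 (-0.08, -0.63 and 0.15) and Cox6a2, described above. In APC_TRI Ndufa6 was at -0.41 on its brighter and 0.82 on its dimmer probe set (limma adjusted p = 0.032 for the dimmer). Ndufs4, an accessory subunit of complex I needed for its assembly, had a second probe set of the same sign that was called in IPC_TRI (-1.08, limma adjusted p = 0.0035). That probe set read 1138.3 to 1522.8 in CTL and 335.7 to 799.3 in IPC_TRI. Probe sets whose names mark a shared or family design may also bind related sequences, and the files do not say which sequence gave a signal.

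**Figure D3:**
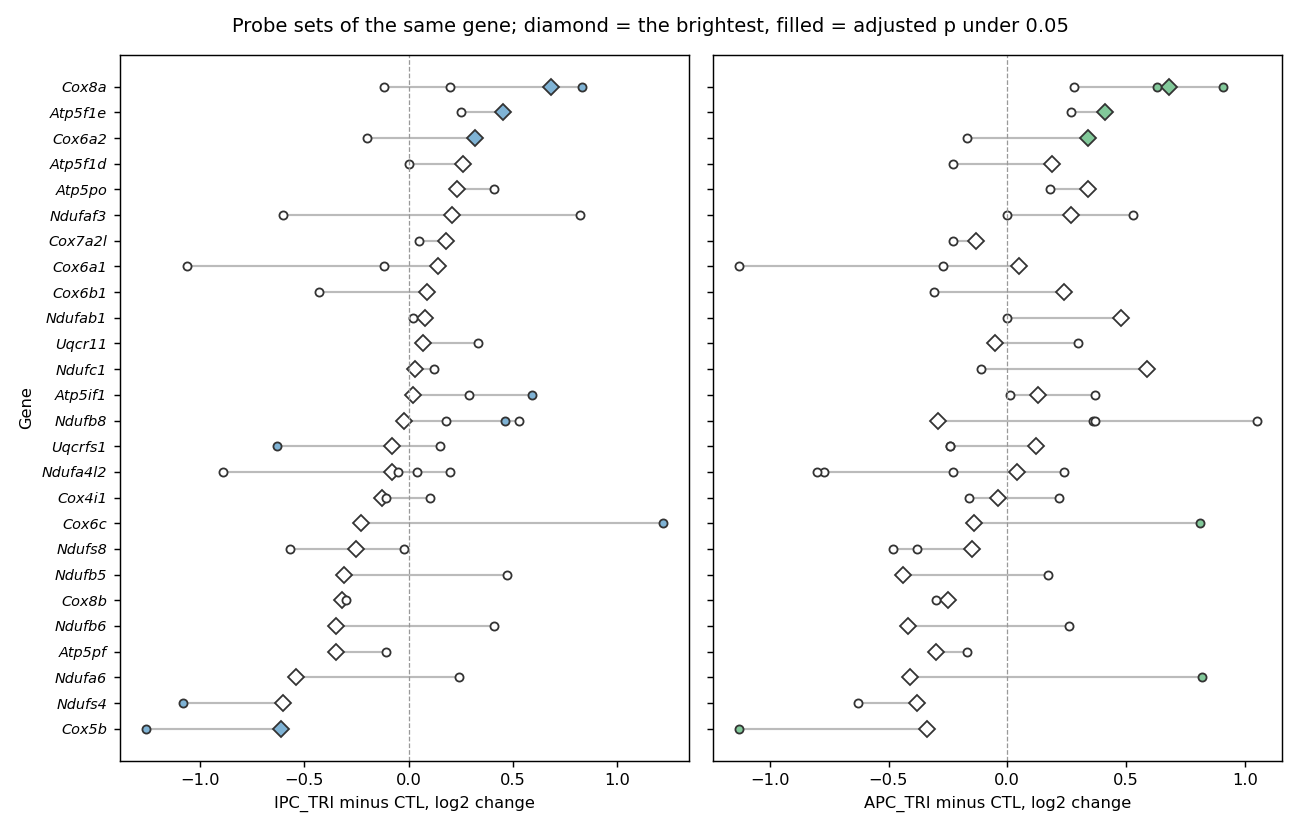
Log2 change against CTL of every tested probe set of the 26 genes with more than 1, in IPC_TRI and APC_TRI; the diamond is the brightest probe set, which stands for the gene in the counts. The probe sets of Cox5b lie on 1 side of 0 and those of Cox6c and Cox6a2 on both sides.

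Ischemia without preconditioning was called for 5 of the 55 genes, 3 lower and 2 higher, against 8.3% of all genes (4.91% lower and 3.39% higher). Ndufs1, Sdha and Uqcrfs1 fell, and Ndufa4l2 and Cox4i2, paralogs known from other tissues for expression under low oxygen, rose. The median change of the 55 genes was -0.08, where all genes had -0.01, and it was 0.05 with the signals as deposited and 0.01 without ISCH 1. All 4 complex III genes were below 0, with a median of -0.31 and 1 called gene.

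Ndufs1 read 1131.9, 1153.9, 1024.7, 1019.0 and 806.6 in ISCH, all below the lowest CTL signal of 1633.2. It fell by 0.83 (SE 0.22, limma adjusted p = 0.013), and by 0.56 with the spike signal as a covariate, where the call ended. Sdha read 6257.3, 5974.9, 5372.2, 6000.2 and 5922.4 in ISCH, again without overlap with CTL, where the lowest signal was 7305.7. It fell by 0.50 (SE 0.14, limma adjusted p = 0.019), with -0.46 and no call without CTL 3, and no call without ISCH 3, with the signals as deposited, under median centring, or with the spike signal or the beta-actin ratio as a covariate. Uqcrfs1 read 20747.0, 24703.4, 18845.8, 21991.7 and 18670.8 in ISCH and 22831.5, 19783.2, 26640.1, 19121.3 and 22625.7 in CTL, with overlap. Its fall of 0.35 (SE 0.11, limma adjusted p = 0.044) was -0.08 with the signals as deposited and ended without CTL 1, 3, 4 or 5 or ISCH 1, 3, 4 or 5 (-0.30 without ISCH 3). Its second probe set was at -0.66 (limma adjusted p = 0.0088) and the third at 0.03. In ISCH minus CTL 2 of the 55 genes did not overlap on either scale, against 8.27% of all genes tested.

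Ndufa4l2 was read by 5 probe sets, which partly come from the same sequence and are not independent. Their assignment to this gene rests on the platform annotation, and older annotations may name them otherwise. The brightest was at 589.9, 524.5, 582.0, 625.4 and 726.8 in CTL and 694.3, 750.9, 1189.1, 1000.7 and 1056.0 in ISCH, with 1 ISCH array inside the CTL range. It rose by 0.63 (SE 0.16, limma adjusted p = 0.013), and without ISCH 3 it was at 0.53 and not called. The second brightest did not overlap: 339.2, 384.7, 378.8, 454.0 and 433.9 in CTL and 683.7, 758.7, 880.2, 993.9 and 933.4 in ISCH. Its change was 1.09 (limma adjusted p = 0.00011). The other 3 were at 1.17, 1.66 and 2.37 (limma adjusted p = 0.084, 0.0096 and 0.00041). The group means of the second probe set were 398.1 ± 45.9 (SD, n = 5) in CTL, 850 ± 127 in ISCH, 580.8 ± 160.6 in IPC, 555.9 ± 115.4 in APC, 466.9 ± 90.37 in IPC_TRI and 480.2 ± 98.47 in APC_TRI, so ISCH stood highest.

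Cox4i2, the alternative form of complex IV subunit 4, read 1072.6, 1661.6, 1073.9, 846.4 and 1173.4 in CTL and 1294.1, 1927.1, 2161.9, 1730.7 and 1752.7 in ISCH. The groups overlapped through CTL 2. The rise was 0.68 (SE 0.22, limma adjusted p = 0.049), and it was 0.57 and not called without CTL 4, nor was it called without CTL 1, 3 or 5 or ISCH 2, 3, 4 or 5, or under 6 of the 13 alternatives, the spike signal as a covariate among them. Its counterpart Cox4i1, the common form, was at -0.09. In ISCH 4 of the 13 cardiomyocyte markers fell (Myh6, Ryr2, Ckmt2 and Atp2a2; list median -0.19) and 5 of the 8 fibroblast markers rose (Col1a1, Col1a2, Col3a1, Dcn and Vim; list median 0.80), with summed signals of 330400 to 571500 and 36630 to 70350. Fabp4, an adipocyte marker, rose by 1.97, while Lpl, the other adipocyte marker tested, was at -0.26 and not called. Thbd, an endothelial marker, rose by 0.66 (list median 0.64). Cd14, a myeloid marker, fell by 0.88, while the myeloid list median was 0.14. The count of 5 genes became 3 without CTL 1, CTL 4, CTL 5, ISCH 4 or ISCH 5, 2 without CTL 3 and 1 without ISCH 3. Other settings gave 1 (median centring, or the spike signal as a covariate) to 9 (array weights).

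**Figure D4:**
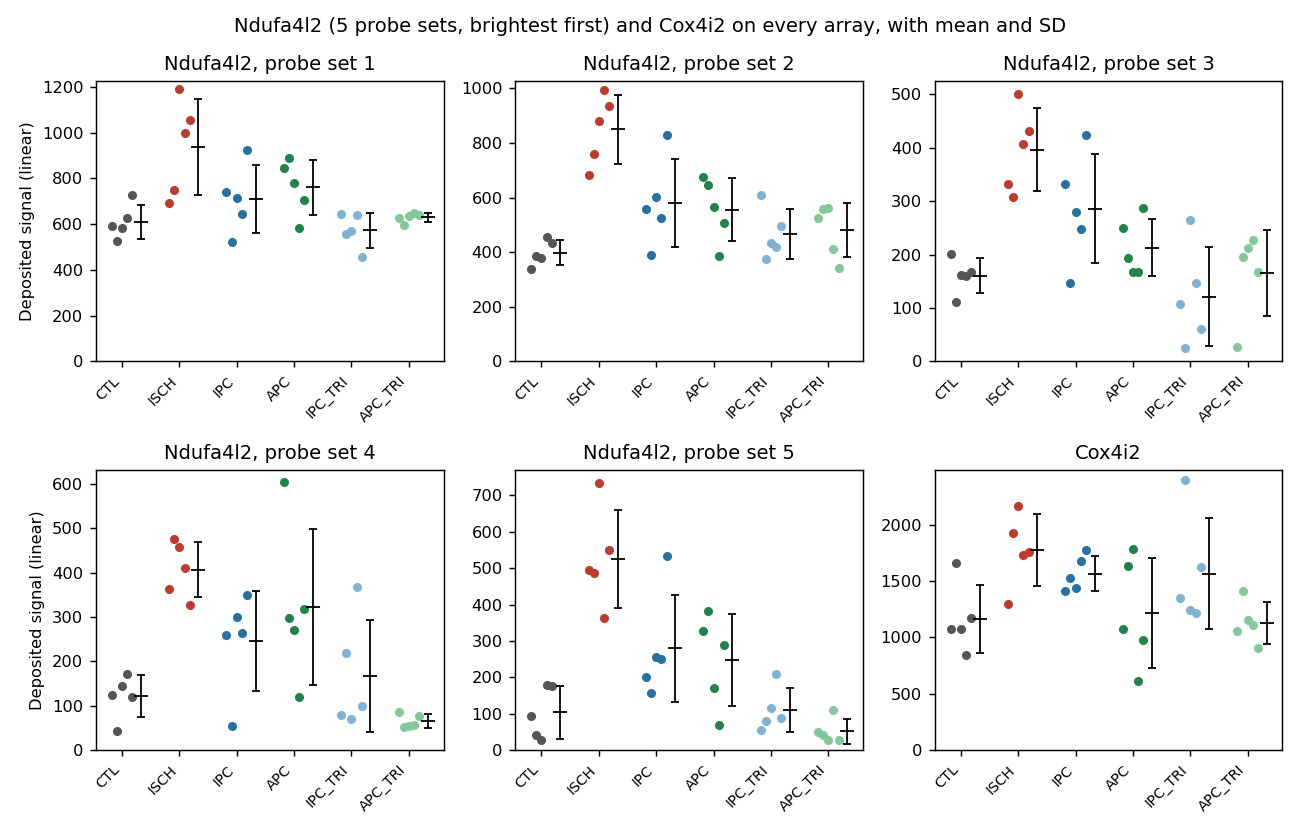
Deposited signal intensity of the 5 probe sets of Ndufa4l2, brightest first, and of Cox4i2 on each array by group, with mean and SD. The second probe set of Ndufa4l2 lies between 683.7 and 993.9 in ISCH and between 339.2 and 454.0 in CTL.

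After either full preconditioning protocol, 1 of the 55 genes differed from CTL, against 3.61% of all genes in IPC and 3.27% in APC. That gene was Ndufc2, an accessory subunit of the membrane arm of complex I, and both comparisons use the same CTL arrays. Ndufc2 read 2645.7, 2197.4, 1866.4, 2221.0 and 1865.0 in CTL, 3338.8, 3303.6, 3355.8, 2766.1 and 3386.9 in IPC, and 2848.3, 2530.7, 4194.9, 3060.2 and 3593.3 in APC. As deposited the IPC arrays lay above CTL, while the APC arrays overlapped it. After normalization the IPC arrays overlapped CTL too. It rose by 0.56 in each (SE 0.16, limma adjusted p = 0.042 in IPC and 0.041 in APC). The calls ended without CTL 2, CTL 3, CTL 4 or CTL 5 in both, and the lowest values were 0.51 in IPC without CTL 5 and 0.47 in APC without APC 3. The calls also ended without 4 of the 5 IPC arrays (all but IPC 4) and 4 of the 5 APC arrays (all but APC 2).

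Several genes that were called in ISCH lay between ISCH and CTL in these groups. They were picked for their change in ISCH against the same CTL arrays, and a middle position can follow from that choice alone. Ndufs1 was at -0.54 in IPC (limma adjusted p = 0.26) and -0.43 in APC (limma adjusted p = 0.52), with means of 1331 ± 298.5 and 1419 ± 168.5 against 1926 ± 207.6 in CTL and 1027 ± 137.6 in ISCH. All IPC and APC arrays lay below all CTL arrays, although neither change was called. On both scales together 1 of the 55 genes did not overlap with CTL in each group, against 6.02% of all genes in IPC and 5.64% in APC. Compared with ISCH itself, Ndufs1 was at 0.29 in IPC (limma adjusted p = 0.66) and 0.41 in APC (limma adjusted p = 0.47). Sdha was at -0.25 and -0.19 against CTL. The median of the 55 genes was -0.02 in both groups, and that of complex I 0.10 in IPC and 0.14 in APC. Among the markers of other cells, Fabp4 rose by 1.70 in IPC and 1.87 in APC, while Lpl was at -0.21 and -0.23, neither called. Cd14 fell by 1.00 in IPC and was at -0.80, also called, in APC, while the myeloid list medians were 0.34 and 0.11.

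Set directly against ISCH, no member was called in IPC or in APC with limma. Of all genes 0.0951% were called in IPC minus ISCH and 0.127% in APC minus ISCH. At an unadjusted p under 0.05 there were 3 of the 55 genes in the first, against 10.05% of all genes, and 4 in the second, against 11.98%. With array weights 1 gene was called in each. In IPC minus ISCH, Ndufa4l2 was at -0.41 (limma adjusted p = 0.33), the coupling factor Atp5pf at 0.37 (limma adjusted p = 0.40) and Uqcrc2 at 0.36 (limma adjusted p = 0.46). In APC minus ISCH, Cox4i2 was at -0.64 (limma adjusted p = 0.21), the assembly factor Ndufaf3 at 0.35 (limma adjusted p = 0.31), Sdha at 0.31 (limma adjusted p = 0.36) and Atp5f1a at 0.26 (limma adjusted p = 0.33). The APC and ISCH arrays of Sdha and of Ndufaf3 did not overlap. In this contrast 2 of the 55 genes did not overlap on either scale, against 2.63% of all genes tested. All 5 probe sets of Ndufa4l2 were below 0 in both contrasts, from -0.92 to -0.41 in IPC minus ISCH and from -1.15 to -0.29 in APC minus ISCH, and none was called. The median of the 55 genes was 0.05 and 0.08, where all genes had 0.02 and 0.03. Of the 13 cardiomyocyte markers, Ttn was called lower in APC minus ISCH, at -1.74 (limma adjusted p = 0.039), while the list median was 0.16. The part of this marker was not tested.

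The ischemic and the anesthetic form of each step were also compared directly. With limma 0 of the 55 genes were called in IPC minus APC (0% of all genes called) and 0 in IPC_TRI minus APC_TRI (0.349% of all genes called). At an unadjusted p under 0.05 there were 1 of the 55 genes, against 2.567% of all genes, and 3, against 14.48%. The medians were -0.04 and -0.02. A gene called in 1 trigger group and not in the other, such as Ndufb2, Cox5b, Atp5pd, Ndufv3 or Sdha, was therefore not shown to differ between the triggers.

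Each full protocol was then set against its trigger. In IPC minus IPC_TRI, 15 of the 55 genes were called, 11 higher and 4 lower in IPC, against 22.9% of all genes (12.2% higher and 10.6% lower). In APC minus APC_TRI it was 12, 7 higher and 5 lower in APC, against 17.2% (8.91% higher and 8.34% lower). Complex I gave 5 higher and none lower in each: Ndufb2, Ndufa3, Ndufs1, Ndufc2 and Ndufa5 in the first, and Ndufa3, Ndufc2, Ndufb5, Ndufb11 and Ndufa5 in the second. Its median was 0.35 and 0.34, with 22 and 21 of the 27 genes above 0, while the medians of all genes were 0.01 and -0.01. Over the 55 genes the medians were 0.22 and 0.23. The first was 0.11 without IPC 1 or without IPC_TRI 5, 0.12 without IPC_TRI 4 and 0.08 with the beta-actin ratio as a covariate, and the second was 0.11 with that covariate. Complex IV had more genes lower than higher in the full protocol, 3 to 2 and 3 to 1. Beside these, Fabp4 was 2.54 and 3.91 higher in the full protocol, and Lpl, the other adipocyte marker tested, was at 0.14 and 0.36. Cd14 was at -1.25 and -1.16, while the myeloid list medians were 0.32 and -0.15. The smooth muscle markers Acta2 and Tagln were at -1.28 and -0.98 in APC minus APC_TRI. Thbd, an endothelial marker, was 0.52 higher in APC than in APC_TRI (limma adjusted p = 0.023), while the list median was 0.28. Of the fibroblast markers, 2 were higher and Dcn lower (-0.69) in IPC than in IPC_TRI, and 1 higher and Dcn lower (-0.81) in APC than in APC_TRI. The cardiomyocyte marker Pln was 0.71 and 0.63 higher, while Ckm was called lower in IPC than in IPC_TRI (-0.54). The medians of the 13 cardiomyocyte markers were -0.09 and -0.03. Of the 2 atrial markers in APC minus APC_TRI, Myl7 was at -1.59 and Myl4 at -0.23, which was not called. On APC_TRI 3 the 2 summed to 17230, against 688.3 at most on the other APC_TRI arrays. The part of these markers was not tested. These contrasts use the same trigger arrays as those against CTL, so the values below are not separate evidence on the trigger groups.

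Uqcrc2 was 1.07 higher in IPC than in IPC_TRI (SE 0.18, limma adjusted p = 5.1e-05) and 1.00 higher in APC than in APC_TRI (SE 0.18, limma adjusted p = 0.00014). Cox7b was 0.77 and 0.92 higher (SE 0.14 in each, limma adjusted p = 0.00019 and 1.4e-05), with signals of 7281.7, 7234.0, 8612.2, 6810.7 and 7288.6 in IPC and 7355.0, 6704.1, 6306.3, 8567.3 and 7820.7 in APC. Cox8a was lower in the full protocols, at -0.87 and -0.88 (SE 0.14 in each, limma adjusted p = 5.7e-05 and 4.5e-05), with 12753.2, 10577.7, 13447.9, 14428.1 and 14235.7 in IPC and 12476.6, 15210.7, 14349.3, 12597.1 and 11753.3 in APC. None of these genes overlapped between a full protocol and its trigger. Groups did not overlap on either scale for 9 of the 15 called genes in IPC minus IPC_TRI, against 288 of the 721 called among all genes. In APC minus APC_TRI it was 9 of the 12, against 353 of 544. Over all genes tested, 9.51% did not overlap in the first contrast and 14.4% in the second. Cox6a2 was at -0.47 and -0.41 (SE 0.10 in each, limma adjusted p = 0.0017 and 0.0059) and Atp5f1e at -0.60 and -0.46 (SE 0.13 in each, limma adjusted p = 0.0014 and 0.014).

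Ndufc2 and Ndufa3, accessory subunits of complex I, separated APC from APC_TRI. Ndufc2 read 1043.2, 1753.6, 1951.7, 1931.5 and 1831.7 in APC_TRI, all below the lowest APC signal of 2530.7, and was 0.89 higher in APC (SE 0.16, limma adjusted p = 0.0002). Ndufa3 read 6203.9, 5402.7, 9031.1, 6075.2 and 9199.1 in APC and 3885.0, 3685.1, 3924.2, 3011.8 and 3997.6 in APC_TRI, again without overlap, and was 0.94 higher in APC (SE 0.22, limma adjusted p = 0.0035). Ndufb5, another accessory subunit, was 0.57 higher (SE 0.16, limma adjusted p = 0.013). Ndufb11 was 0.45 higher (limma adjusted p = 0.028) and lost its call without APC_TRI 1, at 0.39, and without APC 3, 4 or 5 or APC_TRI 4. Ndufa5 was 0.42 higher in IPC than in its trigger (limma adjusted p = 0.013) and 0.43 higher in APC (limma adjusted p = 0.014).

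In IPC minus IPC_TRI, 3 subunits of the peripheral stalk of ATP synthase were higher and another, Atp5po, was at -0.34 and not called, with a second probe set called lower at -0.92. Atp5pb, subunit b, read 8903.5, 10798.2, 7885.4, 11123.0 and 9260.7 in IPC and 3903.6, 6053.6, 6533.3, 6173.8 and 4821.6 in IPC_TRI, without overlap, and was 0.81 higher (SE 0.24, limma adjusted p = 0.016). Atp5pd was 0.66 higher (SE 0.18, limma adjusted p = 0.0089). Atp5pf read 7558.0, 7929.9, 7589.7, 10160.5 and 8207.3 in IPC and 5597.3, 6682.4, 5985.7, 4926.7 and 5582.6 in IPC_TRI, and was 0.52 higher (SE 0.17, limma adjusted p = 0.023). It was at 0.43 and not called without IPC 4, and not called without IPC_TRI 4. Ndufb2 was 0.96 higher in IPC (SE 0.26, limma adjusted p = 0.0075), without overlap.

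Several calls given above ended with the beta-actin ratio as a covariate: Atp5pb, Atp5pd, Atp5pf, Ndufb2, Ndufa5, Atp5f1e and Cox6a2 in IPC minus IPC_TRI, and Ndufa5, Ndufb5, Ndufb11 and Atp5f1e in APC minus APC_TRI. So did the calls given next, except that of Uqcrfs1. The lowest values over the alternatives were 0.47 for Atp5pb and 0.33 for Atp5pd, and Cox6a2 was not called in either contrast with the mean over its probe sets. These remaining calls also ended when single arrays were left out. In IPC minus IPC_TRI, Ndufa3 was at 0.65 (limma adjusted p = 0.035) and its call ended without IPC 1, 3 or 4 or IPC_TRI 4 or 5 (0.53 without IPC 3). Ndufs1 was at 0.62 (limma adjusted p = 0.038) and its call ended without IPC 1, 2, 3 or 4 or IPC_TRI 2 or 5 (0.44 without IPC_TRI 2). Ndufc2 was at 0.45 (limma adjusted p = 0.043) and its call ended without IPC 1, 2, 3 or 5 or IPC_TRI 1, 2 or 5 (0.39 without IPC_TRI 2). Cox5b was at 0.46 (limma adjusted p = 0.039) and its call ended without IPC 1, 3 or 4 or IPC_TRI 5 (0.24 without the latter). Cox6a1 was at -0.34 with an adjusted p that rounds to 0.05 (limma), was not called without IPC 1, 2, 4 or 5 or IPC_TRI 1, 2 or 5 (-0.26 without IPC_TRI 2) or under 11 of the 13 alternatives, and was at 0.40 where the mean over its 3 probe sets was used. Its dimmest probe set was called in the opposite direction, at 1.41 (limma adjusted p = 0.017). In APC minus APC_TRI, Uqcrfs1 was at -0.38 (limma adjusted p = 0.017) and its call ended without APC 3 (-0.31) or APC_TRI 1. Cox5a, a subunit of complex IV read here by a dim probe set at 488.5 to 1288.6 in APC and 1149.0 to 1931.0 in APC_TRI, was at -1.01 (limma adjusted p = 0.022) and its call ended without APC 3 (-0.87), APC 4 or APC_TRI 4.

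The count in IPC minus IPC_TRI fell to 3 with the beta-actin ratio as a covariate and rose to 23 under median centring. The scaling moved the split in the trigger groups too. Against CTL, IPC_TRI had 4 higher and 7 lower genes after quantile normalization, 5 and 5 with the signals as deposited, and 2 and 9 under median centring, which moved the median of all genes to -0.15. APC_TRI had 3 and 5, 3 and 3, and 2 and 3. ISCH had 2 and 3, 1 and 1, and 0 and 1. For IPC minus IPC_TRI the splits were 11 and 4, 12 and 4, and 21 and 2, and for APC minus APC_TRI 7 and 5, 8 and 5, and 8 and 3.

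Array by array, the median of the 55 genes against the CTL mean was below 0 on every APC_TRI array, from -0.19 to -0.06. It ran from -0.25 to 0.06 in IPC_TRI, from -0.29 to 0.20 in ISCH, from -0.16 to 0.11 in IPC, from -0.06 to 0.08 in APC and from -0.05 to 0.05 in CTL. For complex I every array of both trigger groups lay below 0, from -0.51 to -0.02 in IPC_TRI and from -0.34 to -0.10 in APC_TRI, but CTL itself ran from -0.10 to 0.10. IPC_TRI 1, 2 and 3 lay inside that range and APC_TRI 3 and 4 at its edge. The CTL arrays are part of the mean they are set against, which narrows their range. All groups share that mean, so the arrays below 0 are not separate readings. ISCH spread most, from -0.50 to 0.31. The lowest arrays were ISCH 1 and IPC_TRI 5. The cardiomyocyte marker median per array ran from -0.25 to 0.04 in IPC_TRI, from -0.18 to -0.07 in APC_TRI and from -0.32 to 0 in ISCH.

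**Figure D5:**
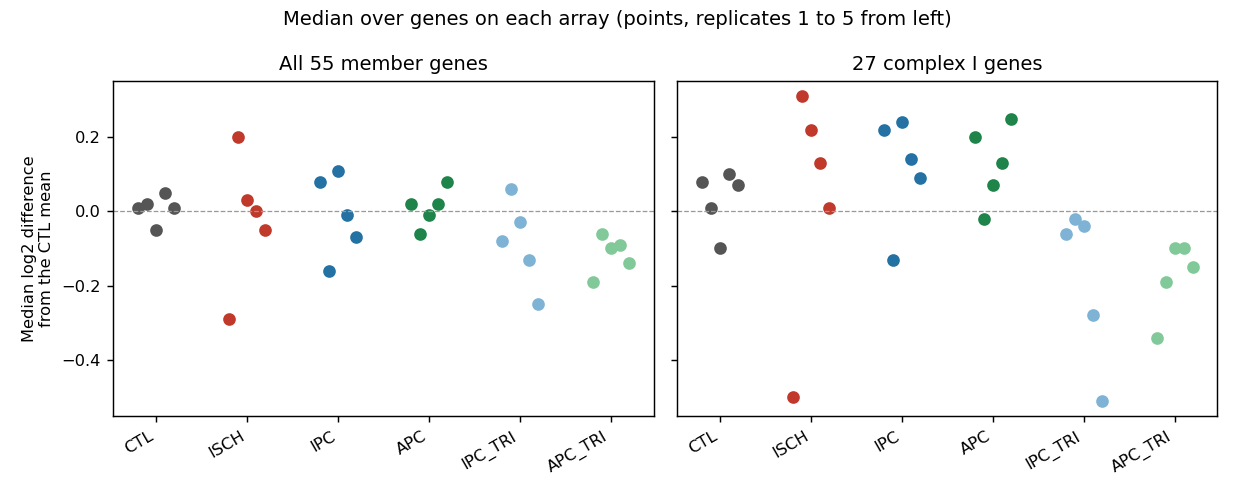
Median log2 difference from the CTL mean over the 55 tested genes and over the 27 complex I genes, for each of the 30 arrays by group. Complex I lies below 0 on all 10 trigger arrays, 5 of them within or at the edge of the CTL range of -0.10 to 0.10, and ISCH spreads from -0.50 to 0.31.

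Other genes of the pathway were few on this array. Of 24 listed assembly factors and electron donors outside the subunits, 4 could be tested (Etfa, Etfdh, Gpd2 and Nnt). Nnt, the transhydrogenase that uses the proton gradient to make NADPH, fell by 0.64 in IPC_TRI (limma adjusted p = 0.0029) and by 0.54 in APC_TRI (limma adjusted p = 0.013), and the other 3 were not called against CTL. Of 19 listed regulators, Esrra, Ppara and Myc could be tested, and none was called against CTL. Esrra, the estrogen-related receptor known as a regulator of mitochondrial genes, was 1.05 higher in IPC than in IPC_TRI (limma adjusted p = 0.017) and at 0.78 in APC minus APC_TRI, which was not called (limma adjusted p = 0.089). Myc was 1.08 higher in IPC than in IPC_TRI, with a limma adjusted p that rounds to 0.05, and 1.76 higher in APC than in APC_TRI (limma adjusted p = 0.0024). Of the subunits encoded by mitochondrial DNA, COX1, COX2 and COX3, the core of complex IV, could be tested. COX2 rose by 0.67 in ISCH (limma adjusted p = 0.028) and COX1 by 0.33 in APC_TRI (limma adjusted p = 0.048). In APC_TRI COX2 was at -0.06 and COX3 at -0.26 (limma adjusted p = 0.14), neither called, and the list median was -0.06. COX3 was at -0.26 in IPC_TRI too (limma adjusted p = 0.11), and at 0.11 in ISCH.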

How the data were processed

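The deposited values are signal intensities of 1 probe set each on rat Affymetrix arrays; the software that made them and its scaling were not given in the sources used here, and the authors' deposited intensities showed a common trimmed mean on all arrays. Genes were named from GEO's platform annotation, where 7006 probe sets have 1 symbol, 308 several and 1426 none, and all 56 symbols were found in RefSeq. The members and the lists of other genes were chosen with earlier results of these data known.

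Signals were quantile normalized as log2(signal + 16) and a filter on mean signal dropped the lowest 40% of probe sets. limma 3.58.1 in R 4.3.3 (lmFit and eBayes with trend) was fitted to all 30 arrays with 1 mean per group and 11 contrasts, with Benjamini-Hochberg adjustment over 5244 probe sets, and was tested on simulated data. The brightest probe set stood for a gene. Array quality was compared with 2-sided exact permutation tests (scipy 1.17.1). Depth has no meaning for arrays, and 5 arrays per group limit the precision; the labels call them biological replicates.

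Genes named are those called in a contrast or in the F test, the member with the smallest p in each direction within a complex where space allowed, the heart and common isoforms with core subunits, genes whose probe sets disagreed, and members left out. Alternatives were pseudocounts of 1 and 64, no filter or 60% left out, values as deposited, median centring, the replicate number as a block, array weights, spike signal or beta-actin ratio as a covariate, the mean over probe sets, only the groups of a contrast, and leaving out arrays. Called markers of cell types are given beside the comparisons. Of the lymphocyte, skeletal muscle and red blood cell lists no tested marker was called in any contrast, and no nerve marker passed the filter.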

Additional observations from a re-analysis of the deposited data

Results flagged for a closer look

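Among the 216 sets of 5 arrays looked at, 17 (7.87%) held 1 array whose gap to the nearest of the others was over 0.71 of the range of the group, where chance gives about 5%. The gap was taken on the normalized log2(signal + 16) scale, on which all values here are given. Of these, 15 were low readings and 2 high. ISCH 1 was low for Atp5pd (11.87, others 12.75 to 12.96), Cox7a2l (9.60, others 10.49 to 10.76), Ndufb2 (11.39, others 12.74 to 13.17) and Ndufs4 (9.97, others 11.48 to 11.77). IPC_TRI 5 was low for Ndufa4l2 (8.68, others 9.22 to 9.37), Ndufb5 (11.22, others 12.19 to 12.31) and Ndufs4 (9.49, others 11.22 to 11.72). APC 3 was low for Atp5pb (12.49, others 12.99 to 13.16), Atp5pf (12.19, others 12.69 to 12.88) and Cyc1 (13.38, others 13.78 to 13.88). APC_TRI 1 was low for Atp5if1 (9.79, others 10.52 to 10.72) and Ndufc2 (10.01, others 10.79 to 10.98).

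Readings stood apart on 4 further arrays. On IPC 2 Cyc1 was low (12.60, others 13.66 to 13.94) and Atp5f1a high (13.58, others 13.05 to 13.20). On IPC 4 Atp5pf was high (13.40, others 12.86 to 13.02), on IPC_TRI 1 Atp5f1a was low (13.04, others 13.28 to 13.31) and on IPC_TRI 4 Ndufc1 was low (11.56, others 12.57 to 12.85). The cause of these readings was not tested.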

How the results depend on the processing

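The number of called genes changed with scaling, with covariates and with which arrays shared the fit. In ISCH minus CTL the 5 called genes became 3 with no filter, 2 with the values as deposited, 1 under median centring, 9 with array weights, 1 with the spike signal as a covariate and 2 with the beta-actin ratio as a covariate. In IPC minus CTL the 1 gene became 0 with no filter, under median centring and with the beta-actin ratio, and 2 with array weights. In APC minus CTL the 1 gene became 0 with no filter and under median centring, and 2 when fitted to the contrast's own groups alone. In IPC_TRI minus CTL the 11 became 5 with the beta-actin ratio and 4 with only those groups. In APC_TRI minus CTL the 8 became 5 under median centring and with the beta-actin ratio, 16 with array weights, 15 without IPC_TRI 5 and ISCH 1 together and 15 with only those groups. IPC minus ISCH and APC minus ISCH went from 0 to 1 with array weights. IPC minus IPC_TRI went from 15 to 23 under median centring, 3 with the beta-actin ratio and 9 with only those groups, APC minus APC_TRI from 12 to 19 with only those groups, and the F test from 19 to 6 with the beta-actin ratio. The share of all genes moved too: in APC_TRI it went from 7.89% to 19.3% with array weights and 4.95% with the beta-actin ratio, and in ISCH from 8.3% to 16.7% with array weights, and in IPC minus IPC_TRI from 22.9% to 4.22% with the beta-actin ratio. The causes were not tested. Leaving out 1 array gave 1 to 5 in ISCH, 0 to 1 in IPC and in APC, 7 to 11 in IPC_TRI, 4 to 7 in APC_TRI, 10 to 18 in IPC minus IPC_TRI, 10 to 13 in APC minus APC_TRI and 13 to 22 in the F test. The sign of Cox6a1 in IPC minus IPC_TRI turned to 0.40 with the mean over its probe sets.

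With the replicate number as a block, 5 genes were called in ISCH, 1 in IPC, 1 in APC, 11 in IPC_TRI, 8 in APC_TRI, 14 in IPC minus IPC_TRI, 13 in APC minus APC_TRI and 16 in the F test. The deviations of 75 pairs of arrays with the same number had a mean correlation of 0.01, and 7 of 30 arrays correlated best with an array of their own number, so the numbers were not taken to pair the samples.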
